A study of Mus musculus with 90 samples.

Results

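The genes described here encode the proteins of the cytosolic ribosome, the particle that translates messenger RNA. Their symbols begin with Rps for the small (40S) subunit, Rpl for the large (60S) subunit, or Rplp for the stalk, and Rpsa, a small subunit protein also known as the laminin receptor, was added by name. The symbol rule found 86 genes among the 35869 genes of the table. These were 31 genes of the small subunit, 46 of the large subunit and 9 paralogs or copies, while 14 symbols of pseudogene or retrotransposed copies were not counted as members. Rpl32l and Rps4l, which the GENCODE M21 annotation lists as processed pseudogenes, match the symbol rule and stayed among the 9 paralogs or copies.

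Each ribosome holds one copy of nearly every ribosomal protein, and the genes are known to be transcribed at high and roughly balanced levels in all growing cells. Their messenger RNAs begin with a C followed by a run of pyrimidines, the 5′ terminal oligopyrimidine (TOP) motif, through which growth signals control their translation. In the marrow, inherited loss of one copy of a ribosomal protein gene, most often RPS19, causes Diamond-Blackfan anemia, in which red cell production fails.

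The cells came from the mouse Runx1 conditional knockout model, in which the Cre recombinase is driven by the interferon-inducible Mx1 promoter and is therefore active in many cell types. Stem cells carrying CD41, a megakaryocyte integrin, were sorted from bone marrow, cultured for 2 days and picked as megakaryocyte-like (MK) or non-megakaryocyte-like (NMK) cells for full-length RNA sequencing with a single-cell kit. The question was how loss of Runx1, a transcription factor of blood development, bears on the way these cells differentiate.

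Wild-type (WT) animals were MxCre1-/-,RUNX1f/f, so they carried the floxed Runx1 alleles without the recombinase. Knockout (KO) animals were MxCre1+/-,RUNX1f/f. All animals of both genotypes had received 4 injections of poly(I:C), which induces interferon, and 4 weeks passed before the cells were taken. The sources used here do not give the age, sex or number of the animals.

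The table that the authors cleared of outliers held 33 libraries, namely 6 MK and 9 NMK libraries of WT animals and 5 MK and 13 NMK libraries of KO animals. Values were transcript abundances per gene length, scaled to one fixed total per library (TPM). With a fixed total the sequencing depth is unknown, and a lower amount of ribosomal protein transcripts and a higher amount of other transcripts in the same cell cannot be told apart. Since the labels name neither the animal nor the culture of a library, a group was treated as 1 sample. No test was run, and the standard deviations (SD) describe the spread between libraries, not between animals. The 4 comparisons share groups and are therefore not independent of each other. Gene totals of Runx1 ran from 7.6 to 22.2 TPM in WT MK and from 8.9 to 47.5 TPM in KO MK. In NMK cells they ran from 0 to 15.7 TPM (WT) and from 0 to 41.5 TPM (KO). A gene total also counts reads outside the deleted part, so it does not check the genotype, which rests on the labels.

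Some libraries stood apart. KO NMK B1-1b had 91.6% of its TPM on the 13 mitochondrially encoded genes, and KO NMK B1-2a had reads on 3011 genes, the fewest of the 33. KO MK libraries 2 and B1-4 had 0.03% and 0.01% of their TPM on 13 megakaryocyte-platelet markers, the level of NMK libraries (0.002% to 0.15%), whereas the other KO MK libraries had 1.80% to 5.42% and the WT MK libraries 1.32% to 2.17%. The main comparisons are therefore given with and without these libraries. The 5 WT MK libraries with no prefix in their title were very alike, with correlations across all genes of 0.972 to 0.981, against 0.689 to 0.850 among WT NMK libraries, and averaging them into 1 turned no direction of a named gene or summary except that of Rpl7l1 between KO and WT MK cells. The labels do not say how many cells went into a library.

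Because all counted ribosomal protein genes were lower in KO than in WT MK cells, as described further on, the stretch around the transcription start was searched in the RefSeq promoter table (GRCm38.p6), which held 65 of the 86 symbols in 77 windows. As examples with and without a motif, 6 promoters are shown, each from 120 bases before to 30 bases after the annotated start: the stalk gene Rplp0, Rpsa, and genes named in the comparisons. Capitals mark TGTGGT, the core of the RUNX motif, or CCGGAAG, the core of ETS factor motifs, on either strand, and CTTTC, a TOP-like pyrimidine stretch, on the gene's strand from 15 bases before the start onward. No marked motif overlaps another.
Rplp0 (chr5:115559347-115559496, plus strand): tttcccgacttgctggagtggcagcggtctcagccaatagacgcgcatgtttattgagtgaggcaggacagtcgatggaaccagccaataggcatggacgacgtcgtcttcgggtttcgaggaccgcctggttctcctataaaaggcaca
Rpsa (chr9:120127646-120127795, plus strand): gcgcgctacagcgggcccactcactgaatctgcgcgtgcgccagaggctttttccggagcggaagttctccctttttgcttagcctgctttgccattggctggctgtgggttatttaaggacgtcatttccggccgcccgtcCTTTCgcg
Rpl35 (chr2:39005102-39005251, minus strand): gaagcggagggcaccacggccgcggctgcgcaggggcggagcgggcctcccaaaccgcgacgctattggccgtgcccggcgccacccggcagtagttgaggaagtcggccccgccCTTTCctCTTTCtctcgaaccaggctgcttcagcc
Rps2 (chr17:24719943-24720092, plus strand): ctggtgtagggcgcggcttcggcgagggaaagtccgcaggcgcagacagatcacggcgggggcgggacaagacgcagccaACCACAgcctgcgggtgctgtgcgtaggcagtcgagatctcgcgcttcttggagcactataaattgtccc
Rpl12 (chr2:32961592-32961741, plus strand): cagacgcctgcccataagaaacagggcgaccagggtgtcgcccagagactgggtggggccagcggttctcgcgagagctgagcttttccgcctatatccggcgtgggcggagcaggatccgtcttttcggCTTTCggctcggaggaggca
Rps6 (chr4:86857338-86857487, minus strand): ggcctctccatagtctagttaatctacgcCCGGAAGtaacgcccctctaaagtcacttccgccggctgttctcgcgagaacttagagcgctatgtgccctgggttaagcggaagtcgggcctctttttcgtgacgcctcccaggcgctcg

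TGTGGT was in 3 of the 77 windows of ribosomal protein genes (3.90%) and in 8.44% of all 32851 windows. CCGGAAG was in 22 of the 77 windows (28.6%), against 6.61% of all windows. CTTTC near the start was in 20 of the 77 windows (26.0%), against 5.78% of all windows. The ETS core and the pyrimidine stretch were thus in a larger share of these windows than of all windows, while the RUNX core was in too few of them to compare the shares. A match is a description of the letters and shows neither binding nor a cause. A window without CTTTC does not show that a TOP motif is absent, since only this exact string near the annotated start was searched.

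In WT cells, ribosomal protein genes took a similar part of all transcripts in both kinds of cell. Their summed share of TPM ran from 11.3% to 14.3% in the 9 WT NMK libraries (median 12.6%) and from 12.4% to 14.4% in the 6 WT MK libraries. The WT means were 12.9% ± 0.98 and 12.8% ± 0.78 (SD), a difference smaller than the spread.

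KO libraries lay lower in both kinds of cell. The 5 KO MK libraries held 5.14% (1B), 7.09% (B1-3), 8.15% (1A), 10.6% (B1-4) and 10.8% (2), so every KO MK library was below every WT MK library. The 11 KO NMK libraries other than B1-1b and B1-2a ran from 7.43% to 11.95% (median 8.88%), and 9 of the 11 were below every WT NMK library. KO NMK B1-1b held 0.81% and B1-2a 0.23%.

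**Figure D1:**
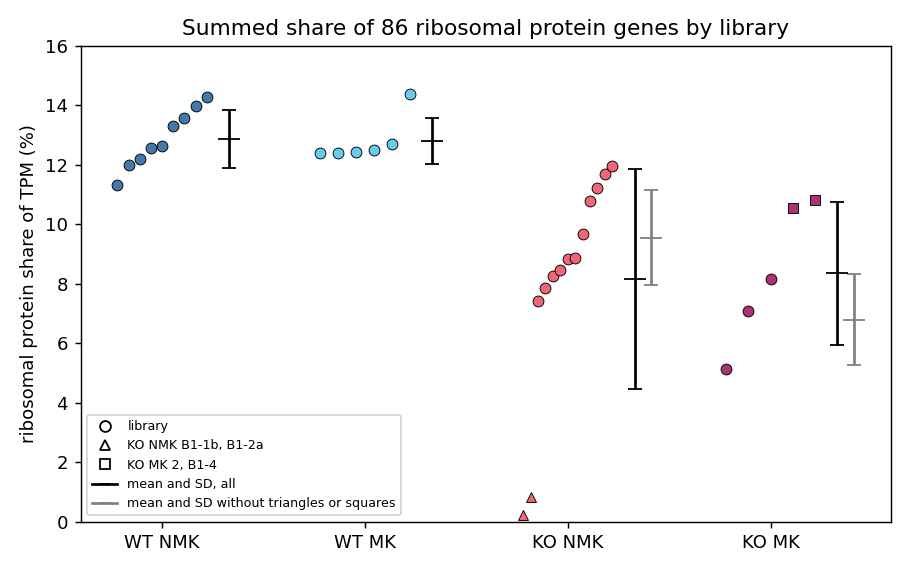
Summed share of TPM on the 86 ribosomal protein genes (y axis, percent) in each library of the 4 groups (x axis). Points are libraries, bars are means with SD for all libraries (black) and without the triangles or squares (grey); all 5 KO MK libraries sit below the lowest WT MK library, at 12.4%.

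The KO MK mean was 8.35% ± 2.40 (SD, 5 libraries), and the KO minus WT difference in MK cells was -4.46 percentage points (SD between libraries 1.70, KO to WT ratio 0.65). Without KO MK 2 and B1-4, the KO mean was 6.79% ± 1.53 (SD, 3 libraries) and the difference -6.02 points (SD 1.05). The KO MK libraries with platelet transcripts were therefore the lower ones. In NMK cells the KO minus WT difference was -4.71 points with all 13 libraries (SD 2.93), and -3.32 points (SD 1.36, ratio 0.74) without B1-1b and B1-2a. Both differences without the libraries that stood apart were larger than the SD.

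Some library titles carry the prefix B1, and the sources used here do not say what it marks. Among libraries with no prefix, the KO minus WT difference was -4.83 points in MK cells (SD 1.79) and -2.68 points in NMK cells (SD 1.19). With the prefix, the 2 KO MK libraries differed from the 1 WT MK library by -3.69 points on average, and no WT NMK library of the table had the prefix. The 3 prefixed KO NMK libraries other than B1-1b and B1-2a held 7.43%, 7.86% and 8.26%, below all 8 KO NMK libraries with no prefix (8.47% to 11.95%). With mitochondrially encoded and platelet genes taken out of the total, the difference was -4.83 points in MK cells (SD 1.88) and -3.82 points in NMK cells without B1-1b and B1-2a (SD 1.45).

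Both subunits were lower in KO cells. The small subunit genes summed to 5.46% ± 0.36 of TPM in WT MK and 3.56% ± 1.20 in KO MK (SD, ratio 0.65). The large subunit genes summed to 6.85% ± 0.43 and 4.51% ± 1.21 (ratio 0.66), and in both subunits all 5 KO MK libraries were below all 6 WT MK libraries. The ratio of small to large subunit TPM was 0.80 ± 0.03 in WT MK and 0.78 ± 0.07 in KO MK, so the balance of the subunits differed by less than the spread. Without KO MK 2 and B1-4 that ratio was 0.74 ± 0.04, a difference of -0.06 from WT MK (SD 0.03), with small subunit genes at 2.76% ± 0.67 and large subunit genes at 3.73% ± 0.80. The ratios overlapped: KO MK B1-3, at 0.768, was above WT MK B1-1, the lowest of WT MK at 0.748. KO MK 1B (0.696) and 1A (0.740) were below every WT MK library.

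The platelet markers were set beside the ribosomal protein share, since they split the KO MK libraries into the same 2 sets. In WT MK libraries the markers took 1.32% to 2.17% of TPM at a ribosomal protein share no lower than 12.4%, while KO MK 1B had the highest marker share (5.42%) and the lowest ribosomal protein share (5.14%) among libraries other than B1-1b and B1-2a. Taking the markers out of the total and the mitochondrially encoded genes out of the total left a KO minus WT difference of -6.55 points (SD 1.15) without KO MK 2 and B1-4.

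Markers of other cells also differed between the MK groups. The 9 stem cell markers summed to 83.5 to 174 TPM in WT MK and to 282 (B1-3), 294.5 (1A), 678 (1B), 917 (2) and 1603 TPM (B1-4) in KO MK, so every KO MK library was above every WT MK library. The 7 granulocyte-monocyte markers summed to 163, 261 and 347 TPM in WT MK as lowest, median and highest value, and to 272 (1A), 376 (B1-3), 737 (1B), 1036 (B1-4) and 2162 TPM (2) in KO MK, with Mpo at 0 in all 5. Of that list, Elane and Csf1r were at 0 in every WT MK library. Only KO MK 1A lay within the WT MK range of the list's sum.

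The 9 erythroid markers summed to 70.8 to 237 TPM in WT MK. In KO MK they summed to 0.3 (B1-4), 167 (1A), 207 (B1-3), 1163 (2) and 1912 TPM (1B). Car1, Hba-a1 and Hba-a2 were at 0 in every library of both MK groups, and Klf1 was at 0 in every KO MK library. The 6 lymphoid markers summed to 15.2 to 39.7 TPM in WT MK and to at most 37 TPM in KO MK except for library 2 (1173 TPM), and the 5 mast cell and basophil markers to at most 92.6 TPM in either. The 6 proliferation markers summed to 693 to 1752 TPM in WT MK and 224 to 3368 TPM in KO MK. In NMK cells, with all 13 KO libraries, the medians of WT and KO were 517 and 910 TPM for stem cell markers, 909 and 503 TPM for granulocyte-monocyte markers and 19.1 and 84.6 TPM for erythroid markers. The part of these markers in the ribosomal protein differences was not tested.

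**Figure D2:**
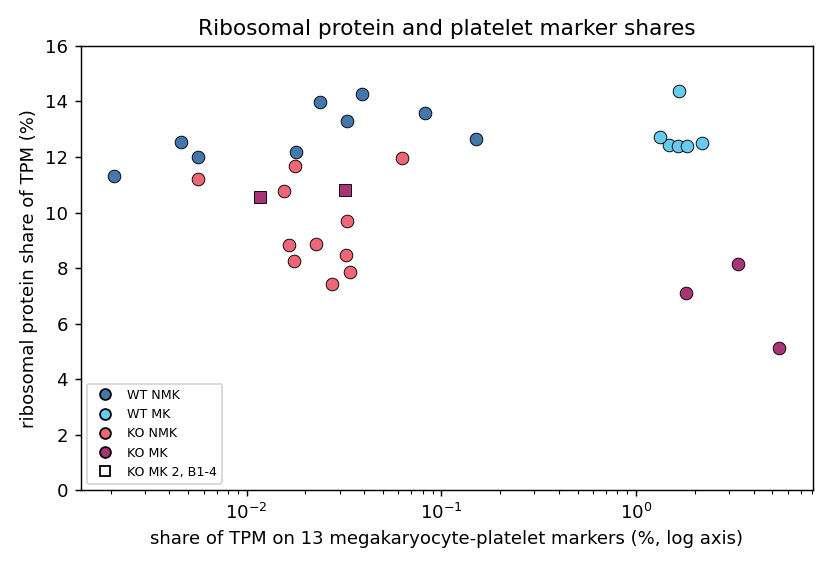
Ribosomal protein share of TPM (y axis, percent) against the share on 13 megakaryocyte-platelet markers (x axis, percent, log scale); each point is a library, KO NMK B1-1b and B1-2a are not drawn. The 3 KO MK libraries with 1.80% or more on the markers sit at 5.14% to 8.15% on the y axis, while the 6 WT MK libraries, at 1.32% to 2.17% on the x axis, sit at 12.4% or higher.

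Single genes were compared as differences in mean log2(TPM + 1) between groups, beside the pooled SD between libraries. Because a pseudocount of 1 is added, the difference understates the change of low genes. A gene was counted when its mean over both groups was at least 1 TPM, and called when the difference reached 1 log2 unit. Of the 86 genes, 83 were counted in each comparison; Rpl10l was at 0 in every library, and Rpl3l and Rpl39l had means under 1 TPM.

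KO MK cells had lower levels of all 83 counted ribosomal protein genes than WT MK cells. The median difference was -0.71 log2 units, against 0.09 over all 10969 genes counted, and 9 members were lower by 1 log2 unit or more while none was higher by that much. Over all genes, 9.57% were lower by 1 log2 unit or more and 45.3% were lower by any amount, so the members past 1 unit made up a share near the background, while their common direction did not. For 32 members every KO library was below every WT library, against 1.72% of all genes. Most members are highly expressed, so the same counts were made at a minimum of 100 TPM: all 80 members were lower (56.0% of the 1563 genes), 7 of them by 1 log2 unit or more (7.81%), and 31 did not overlap (4.99%). KO MK libraries had 11896 (2), 12215 (B1-4), 12428 (1B), 12801 (1A) and 14487 (B1-3) genes above 0 TPM, against 14089 to 15252 in WT MK. The part of this in the differences was not tested. The count of 9 moved with single libraries: it was 1 without KO MK 1B, 15 without B1-4 and 14 without library 2. The shares of all genes with a single library left out are not given here.

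Without KO MK 2 and B1-4, the median difference of the 83 members was -1.01, and 43 members were lower by 1 log2 unit or more (9.83% of all genes). The groups did not overlap for 75 members, against 5.18% of all genes. In the authors' table with all 46 libraries, the median difference of members in MK cells turned to 0.34. That table adds 5 WT MK libraries, of which 4 hold 0.39% to 1.51% of their TPM on ribosomal protein genes and 1 holds 20.1%. It also adds 4 KO MK libraries, which hold 0.13%, 1.97%, 2.14% and 3.66%.

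**Figure D3:**
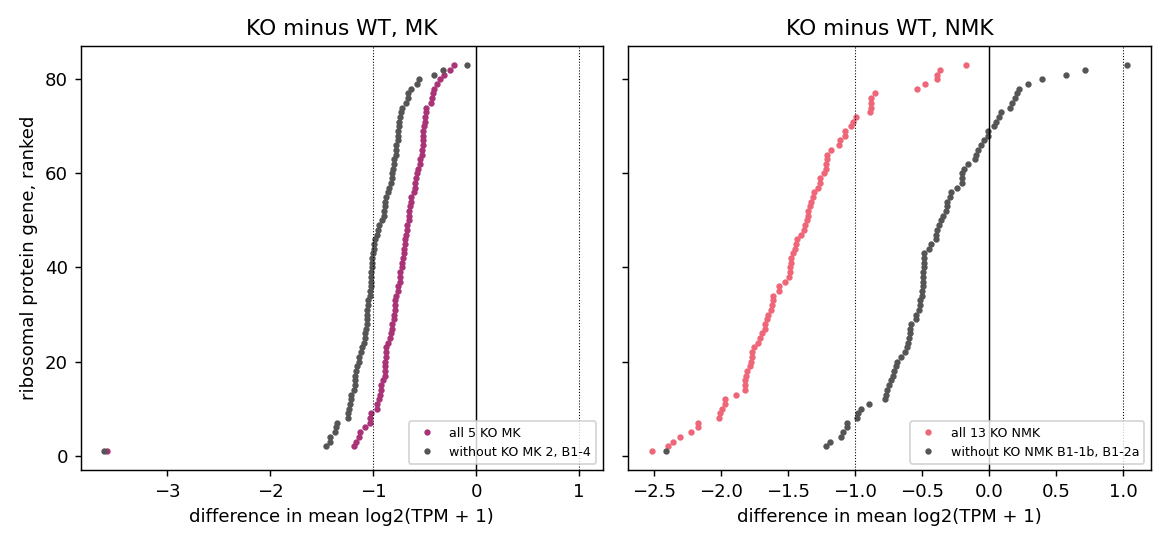
Differences in mean log2(TPM + 1) between KO and WT (x axis) for the 83 counted ribosomal protein genes, ranked from lowest to highest (y axis), in MK cells (left) and NMK cells (right). Coloured points use all libraries and grey points leave out KO MK 2 and B1-4 or KO NMK B1-1b and B1-2a; dotted lines mark 1 log2 unit, and in MK cells all points lie left of 0.

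Rpl12, which sits at the base of the stalk, had 1361, 1892 and 2227 TPM in WT MK as its lowest, median and highest value. In KO MK it had 491 (1B), 837 (B1-3), 867 (B1-4), 889 (1A) and 1146 TPM (2). The groups did not overlap, with a difference of -1.17 (SD 0.35), or -1.36 (SD 0.32) without KO MK 2 and B1-4. In NMK cells Rpl12 differed by -0.10 (SD 0.60) between KO and WT without B1-1b and B1-2a, and by -0.88 (SD 2.25) with all 13 KO libraries.

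Rps6, the classical substrate of S6 kinases and the example of an ETS core above, had 1650, 1835 and 2124 TPM in WT MK and 797 (1B), 1184 (B1-3), 1288 (1A), 1689 (2) and 1856 TPM (B1-4) in KO MK. Its difference was -0.48 (SD 0.34), or -0.77 (SD 0.23) without KO MK 2 and B1-4, with no overlap in the second case only. It was chosen for its promoter after the windows were searched.

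At the other end in MK cells were Rpl7l1 (-0.21, SD 0.44), a relative of Rpl7 known to act in the maturation of the large subunit, Rpl3 (-0.25, SD 0.52), which helps to shape the peptidyl transferase centre, and Rps27 (-0.31, SD 0.72). Their differences were smaller than the SD. Without KO MK 2 and B1-4, Rpl3 and Rps27 were lower by 0.68 and 0.94 on the log2 scale, while Rpl7l1 stayed near 0 at -0.09 (SD 0.44).

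The stalk proteins recruit elongation factors to the ribosome: Rplp0 is the scaffold, and Rplp1 and Rplp2 bind to it as dimers. Rplp0 had 1871, 2030 and 2387 TPM as lowest, median and highest value in WT MK, and 850 (1B), 1302 (1A), 1304 (B1-3), 1747 (2) and 2627 TPM (B1-4) in KO MK. KO MK B1-4 thus exceeded every WT MK library, and the other 4 KO MK libraries were below all of them. The difference was -0.51 (SD 0.41), or -0.88 (SD 0.22) without KO MK 2 and B1-4. In NMK cells Rplp0 had 1313, 1616 and 2316 TPM in WT and 1437, 1882 and 2582 TPM in KO without B1-1b and B1-2a, with overlapping groups and a difference of 0.19 (SD 0.26). It was -1.31 (SD 2.86) with all 13 KO libraries.

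Rplp1 had 1530, 1804 and 2216 TPM in WT MK and 882 (1B), 992 (B1-4), 1113 (B1-3), 1286 (1A) and 1340 TPM (2) in KO MK, with a difference of -0.70 (SD 0.22). Rplp2 differed by -0.89 (SD 0.32). Both genes had every KO MK library below every WT MK library. The differences were -0.74 (SD 0.22) and -1.17 (SD 0.21) without KO MK 2 and B1-4. In NMK cells without B1-1b and B1-2a, Rplp1 and Rplp2 differed by -0.29 (SD 0.47) and -0.40 (SD 0.38), so only the second passed its SD. They differed by -1.31 (SD 2.36) and -1.46 (SD 2.20) with all 13 KO libraries, both smaller than the SD. The stalk genes together took 0.47% ± 0.08 of TPM in WT NMK and 0.44% ± 0.10 in those KO NMK libraries, or 0.37% ± 0.18 with all 13.

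Rpsa had 641, 890 and 1340 TPM in WT MK and 330 (1B), 458 (B1-3), 475 (1A), 629 (2) and 767 TPM (B1-4) in KO MK. Only B1-4 reached into the WT range, and the difference was -0.88 (SD 0.42), or -1.18 (SD 0.36) without KO MK 2 and B1-4. In NMK cells Rpsa was at 345, 530 and 914 TPM in WT and at 423, 747 and 1115 TPM in KO without B1-1b and B1-2a. That difference was 0.39 (SD 0.46), and it was -0.39 (SD 2.08) with those 2 libraries.

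Between KO and WT NMK cells the members were lower on balance but not all in one direction. Without B1-1b and B1-2a, the median difference was -0.49, against 0.37 over all 10963 genes counted, and 69 of the 83 members were lower by any amount (35.5% of all genes). By 1 log2 unit or more, 7 members were lower and 1 was higher, and 33.9% of all genes were past 1 unit in either direction. At a minimum of 100 TPM, 66 of 80 members were lower, against 44.0% of 1556 genes. With all 13 KO NMK libraries, 71 members were lower by 1 log2 unit or more (14.4% of all genes, and 44.8% of those at 100 TPM or more) and the median was -1.47. KO NMK B1-2a had only 6 of the 86 members at 1 TPM or more. Without it 25 members passed 1 unit, a setting for which the share of all genes is not given here.

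Rpl23 and Rpl37, both of the large subunit, were the members for which every KO NMK library was below every WT NMK library, also with all 13 libraries (0.0730% of all genes did so without B1-1b and B1-2a). They were singled out after their values were seen. Rpl23, known to bind MDM2, the inhibitor of p53, had 1519, 1807 and 2182 TPM in WT NMK and 804, 974 and 1183 TPM in KO NMK without B1-1b and B1-2a. The gap between the groups was wide, with a difference of -0.89 (SD 0.16). Rpl37 had 1056, 1246 and 1914 TPM in WT NMK and 539, 754 and 941 TPM in those KO NMK libraries, a difference of -0.78 (SD 0.27). With all 13 libraries the differences were -1.81 (SD 2.15) for Rpl23 and -1.82 (SD 2.18) for Rpl37, both smaller than the SD.

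Rps21, a small subunit protein, had 466.2, 608 and 803 TPM in WT NMK and 123, 297 and 613 TPM in KO NMK without B1-1b and B1-2a. The difference was -1.22 (SD 0.57), and in MK cells it was -1.03 (SD 0.41), or -1.24 (SD 0.40) without KO MK 2 and B1-4. Rpl35, at the exit of the peptide tunnel, had 5502, 8274 and 10163 TPM in WT NMK and 2037, 3809 and 6637 TPM in those KO NMK libraries, with a difference of -1.06 (SD 0.41). For both genes the groups overlapped at their edges. With all 13 KO NMK libraries the differences were -1.82 (SD 1.83) for Rps21 and -2.36 (SD 2.71) for Rpl35.

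The members highest in KO NMK relative to WT NMK were Rpl7l1, Rps2 and Rpl3. Rps2, a small subunit protein near the messenger RNA entry, had 388, 774 and 1479 TPM in WT NMK and 783, 1295 and 1969 TPM in KO NMK without B1-1b and B1-2a, a difference of 0.71 (SD 0.50). Rpl7l1 was higher by 1.03 (SD 0.83) and Rpl3 by 0.57 (SD 0.49). With all 13 KO NMK libraries the differences of these genes were -0.54 (Rps2, SD 2.51), -0.17 (Rpl7l1, SD 2.40) and -0.39 (Rpl3, SD 2.18), all smaller than the SD.

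MK and NMK cells were also compared within each genotype. In WT the median member was 0.18 log2 units higher in MK cells, against 0.72 over all 10546 genes counted, and 3 members passed 1 log2 unit in either direction, against 45.2% of all genes. WT MK libraries had more genes above 0 TPM (14089 to 15252) than WT NMK libraries (5475 to 11715), and the part of this difference in the shift of all genes was not tested. The summed share did not separate the cells. Only a few single members did, and the share of all genes that did so is given beside them below.

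Rps2, with 1277, 1620 and 2160 TPM in WT MK, was 1.05 (SD 0.53) above WT NMK, although the groups overlapped. Rpl29, a large subunit protein, had 59, 100 and 120 TPM as lowest, median and highest value in WT NMK and 132, 200 and 230 TPM in WT MK, a difference of 1.01 (SD 0.36). It was the only member with every WT MK library above every WT NMK library (4.04% of all genes). Rpl7l1 was higher by 0.96 (SD 0.67).

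Rpl35 was lower in WT MK, with 3721, 4633 and 5172 TPM against 5502 to 10163 TPM in WT NMK (difference -0.76, SD 0.26). Rps19 and Rpl37 were the other members with every WT MK library below every WT NMK library (0.578% of all genes). Rps27, a small subunit protein, had 504, 573 and 1050 TPM in WT MK and 461, 1031 and 2085 TPM in WT NMK, a difference of -0.69 (SD 0.53). Its highest WT MK value was in B1-1, the 1 prefixed library, and the other 5 lay between 504 and 612 TPM.

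**Figure D4:**
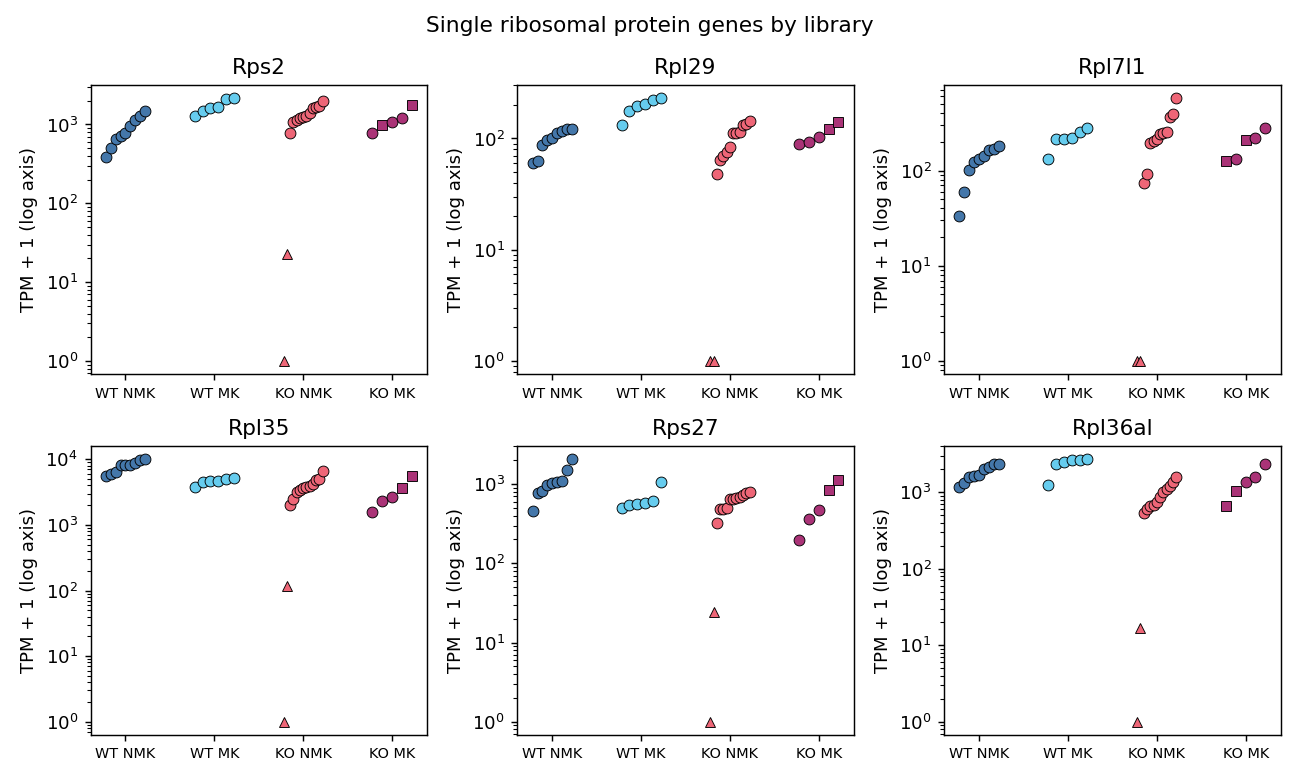
TPM + 1 (y axis, log scale) of 6 ribosomal protein genes in each library of the 4 groups (x axis); triangles are KO NMK B1-1b and B1-2a, squares KO MK 2 and B1-4. Rpl29 separates WT MK (132 to 230 TPM) from WT NMK (59 to 120 TPM), and Rpl35 is lower in WT MK than in WT NMK in every library.

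In KO cells the comparison of MK with NMK depended on which libraries were kept. With all libraries 30 members were higher in MK by 1 log2 unit or more (36.5% of all genes), and none by more than its SD (15.2% of all genes). That count was 3 without KO NMK B1-1b, 0 without B1-2a and 46 without KO MK 1B, and the matching shares of all genes are not given here. Without KO NMK B1-1b and B1-2a no member passed 1 unit (34.8% of all genes), and the median was -0.21. Without KO MK 2 and B1-4 as well, 3 members were lower by 1 unit (10.1% of all genes), the median was -0.50 against 0.43 over all genes, and the MK minus NMK difference in the summed share was -2.76 points (SD 1.59).

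In that last set, the 3 members past 1 unit were Rpl32l (-1.13, SD 0.58), Rps19 (-1.10, SD 0.37) and Rps20 (-1.08, SD 0.58). The members highest in KO MK were Rpl36al (0.94, SD 0.49), Rpl10 (0.48, SD 0.40) and Rpl41 (0.18, SD 0.36). Rpl10 joins the large subunit late in its assembly and had 1984 to 2994 TPM in WT MK, and 1574 (B1-3), 1580 (2), 1740 (1B), 1908 (B1-4) and 2596 TPM (1A) in KO MK. With a KO minus WT difference of -0.38 (SD 0.25), or -0.33 (SD 0.26) without KO MK 2 and B1-4, it was among the members least reduced in KO MK. With all KO libraries, the MK minus NMK differences were 0.19 (SD 1.74) for Rpl32l, 0.53 (SD 2.48) for Rps19 and 0.50 (SD 2.29) for Rps20. They were 1.72 (SD 2.68) for Rpl36al, 1.61 (SD 2.71) for Rpl10 and 1.26 (SD 2.62) for Rpl41, so all 6 were smaller than the SD.

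Genes linked to Diamond-Blackfan anemia in people were followed as a group of 20 members. All 20 were lower in KO MK than in WT MK, with a median of -0.77, and 19 of the 20 were lower in KO NMK than in WT NMK without B1-1b and B1-2a, with a median of -0.54. All 20 were also lower in KO MK without KO MK 2 and B1-4 (median -1.05), and with all 13 KO NMK libraries all 20 were lower in KO NMK (median -1.38). In each setting where all 20 were lower, all 83 counted members were lower too, so those counts hold for any subset of members. Most of the 83 were also lower in KO NMK without B1-1b and B1-2a, as given above. The medians over all 83 counted members, which include these 20, were -0.71 and -1.01 in MK cells with and without KO MK 2 and B1-4, and -1.47 and -0.49 in NMK cells with and without B1-1b and B1-2a.

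Rps19, the gene most often affected, had 874, 995 and 1152 TPM in WT MK. In KO MK it had 322 (1B), 475 (1A), 560 (B1-3), 1370 (B1-4) and 1394 TPM (2). The 3 libraries with platelet transcripts were below every WT MK library and the other 2 were above every one, so the pooled difference of -0.53 (SD 0.64) joins 2 separate sets, and without KO MK 2 and B1-4 it was -1.19 (SD 0.25). In WT NMK, Rps19 was higher than in WT MK, at 1158, 1680 and 1957 TPM.

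Rpl5 and Rpl11 bind the 5S ribosomal RNA and, when ribosome assembly is disturbed, MDM2. Rpl5 had 890, 1028 and 1223 TPM in WT MK and 330 (1B), 512 (B1-3), 562 (B1-4), 614 (1A) and 702 TPM (2) in KO MK, with no overlap and a difference of -0.97 (SD 0.30). Rpl11 differed by -0.88 (SD 0.29), also with no overlap. Leaving out KO MK 2 and B1-4, the differences were -1.13 (SD 0.28) and -1.04 (SD 0.27). In NMK cells without B1-1b and B1-2a, the 2 genes differed by -0.04 (SD 0.55) and -0.06 (SD 0.37), well within the spread. Their differences were -1.18 (SD 2.32) and -1.03 (SD 2.07) with all 13 KO libraries, also smaller than the SD.

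The paralogs and copies took 0.50% ± 0.15 of TPM in WT NMK and 0.26% ± 0.10 in KO NMK without B1-1b and B1-2a (ratio 0.525), or 0.22% ± 0.14 with all 13 KO libraries. In MK cells they took 0.49% ± 0.06 in WT and 0.28% ± 0.07 in KO, or 0.30% ± 0.07 without KO MK 2 and B1-4. Rps27l, a paralog of Rps27 known as a p53 target, had 755, 1711 and 3209 TPM in WT NMK and 379, 817 and 2518 TPM in those KO NMK libraries. The groups overlapped, with a difference of -1.11 (SD 0.75), and in MK cells the difference was -1.14 (SD 0.45). It was -2.39 (SD 2.57) in NMK cells with all 13 KO libraries, and without KO MK 2 and B1-4 it was -1.37 (SD 0.35) in MK cells.

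Rpl22l1 and its parent Rpl22, known for its role in T cell development, were both lower in KO NMK. Rpl22l1 had 305, 917 and 2049 TPM in WT NMK and 150, 356 and 1138 TPM in KO NMK without B1-1b and B1-2a, a difference of -1.18 (SD 0.75). Rpl22 had 29, 73 and 110 TPM in WT NMK and 8.3, 34 and 65 TPM in those KO NMK libraries, a difference of -1.09 (SD 0.70). With all 13 KO libraries the differences were -2.22 (SD 2.16) for Rpl22l1 and -1.78 (SD 1.47) for Rpl22. On the TPM scale, which is per length, the paralog stood above its parent in the medians of WT NMK and of KO NMK without B1-1b and B1-2a. The GENCODE M21 transcripts are 76.5% identical over 293 aligned bases, with a longest identical run of 26 bases.

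Rpl36al, a paralog of Rpl36a, had 1178, 1681 and 2304 TPM in WT NMK and 540, 856 and 1575 TPM in KO NMK without B1-1b and B1-2a. In KO MK it had 664 (B1-4), 1017 (2), 1360 (B1-3), 1560 (1B) and 2324 TPM (1A), the 3 libraries with platelet transcripts being the higher ones. The summed share, in contrast, was lowest in those 3 libraries. The parent Rpl36a had 657 (1B), 766 (B1-3), 983 (B1-4), 1152 (1A) and 1272 TPM (2) in the same libraries.

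Rpl32l was lower in WT MK (50, 72 and 109 TPM) than in WT NMK (99, 167 and 219 TPM), with a difference of -1.17 (SD 0.37). It was added to the copies after the table was seen, and GENCODE M21 lists it as a processed pseudogene. Its transcript is 97.5% identical to that of Rpl32 over 398 bases, with a longest identical run of 94 bases, so its value is uncertain, since reads from Rpl32 could be counted for it. Rpl32 itself differed in the same direction, by -0.53 (SD 0.25).

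Rps4l varied widely between libraries of the same WT group. GENCODE M21 lists it as a transcribed processed pseudogene, related to Rps4x, with 81.4% identity over 784 bases and a longest identical run of 35 bases. The 9 WT NMK libraries held 240.4, 163.7, 152, 9.9, 1.8, 0.3, 0, 0 and 0 TPM. The 6 WT MK libraries held 323.8, 121.8, 83.2, 0, 0 and 0 TPM. Among KO cells only NMK B1-3b had a high value, 156.6 TPM, while the other 12 KO NMK libraries were at 0.2 TPM or less and the 5 KO MK libraries at 0.1 TPM or less. Zeros and values above 80 TPM thus stood side by side within each WT group, with 3 WT NMK libraries between them, and a mean does not describe them. The differences were -3.59 (SD 2.99) in MK cells and -2.41 (SD 2.85) in NMK cells without B1-1b and B1-2a. They were -3.61 (SD 3.39) in MK cells without KO MK 2 and B1-4 and -2.51 (SD 2.71) in NMK cells with all 13 KO libraries.

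**Figure D5:**
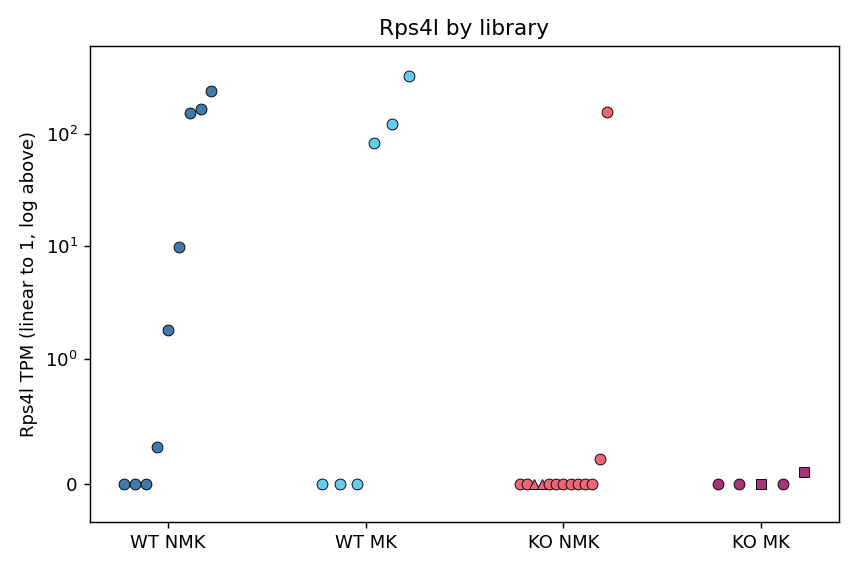
Rps4l TPM (y axis, linear up to 1 and logarithmic above) in each library of the 4 groups (x axis); triangles are KO NMK B1-1b and B1-2a, squares KO MK 2 and B1-4. Of 15 WT libraries, 6 are above 80 TPM, and of 18 KO libraries 1 is.

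Within the ribosomal protein sum of a library, the levels spanned a wide range. Without KO NMK B1-1b and B1-2a, the highest median shares of the sum were those of Rpl35 (4.10%), Rpl32 (4.03%) and Rpl13 (3.82%). Among members with a median share above 0, the lowest were Rpl22 (0.0425%), Rpl32l (0.0834%) and Rpl29 (0.109%). Values are per length and come from short, highly similar genes, so part of this range can come from how reads were assigned, which was not tested. Correlations of member levels between libraries were 0.931 to 0.998 within WT MK, 0.897 to 0.977 within WT NMK and 0.964 to 0.996 within KO MK, given as a description over the 86 members.

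Each gene was also taken as a percent of the ribosomal protein sum of its library. This moves all members of a library by the same amount on the log scale, apart from the pseudocount, so the order of the members carries no further information, and the values give only the size of a difference relative to the sum. In MK cells Rpl12 differed between KO and WT by -0.50 (SD 0.20) on the log2 scale, and Rpl7l1 and Rpl3 were higher by 0.43 (SD 0.50) and 0.41 (SD 0.32). Leaving out KO MK 2 and B1-4, these differences were -0.42 (SD 0.19) for Rpl12, 0.81 (SD 0.35) for Rpl7l1 and 0.25 (SD 0.32) for Rpl3. In NMK cells without B1-1b and B1-2a, Rpl7l1 and Rps2 made up more of the sum in KO, by 1.37 (SD 0.85) and 1.14 (SD 0.47), and Rps21 differed by -0.75 (SD 0.55). With all 13 KO NMK libraries the differences were 0.66 (SD 1.57) for Rpl7l1, 0.41 (SD 1.64) for Rps2 and -0.84 (SD 1.48) for Rps21, all smaller than the SD.

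Other genes of the translation machinery were followed as lists. As background for the counts of lower genes here and below, 45.3% of all genes were lower by any amount in KO MK. In KO NMK without B1-1b and B1-2a it was 35.5%. The 7 elongation factors were all lower in KO MK (median -0.48), whereas 1 of the 7 was lower in KO NMK without B1-1b and B1-2a (median 0.33, all genes 0.37). Of 27 initiation factors, 25 were lower in KO MK (median -0.35) and 7 in those KO NMK libraries (median 0.49). Of 7 other genes with TOP messenger RNAs, all 7 were lower in KO MK (median -0.71), with Npm1, a nucleolar chaperone, at -1.50 (SD 0.55) and Nap1l1 at -1.24 (SD 0.39), and 1 of 7 was lower in those KO NMK libraries (median 0.17).

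These counts moved with the libraries that stood apart. For the sets without KO MK 2 and B1-4 or with all 13 KO NMK libraries, the share of all genes lower by any amount is not given, here or below. In MK cells without KO MK 2 and B1-4, 6 of 7 elongation factors (median -0.78) and 20 of 27 initiation factors (median -0.11) were lower in KO MK. All 7 TOP genes were lower as well (median -0.89), with Npm1 at -1.91 (SD 0.41) and Nap1l1 at -1.17 (SD 0.34). The median over all genes was 0.21 in this set of libraries. The NMK medians turned with all 13 KO libraries. Then 6 of 7 elongation factors (median -0.34), 17 of 27 initiation factors (median -0.35) and 5 of 7 TOP genes (median -0.66) were lower in KO NMK, with all genes at 0.18. A direction of these lists in NMK cells therefore rests on which libraries are kept.

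The 31 ribosome biogenesis genes, which process ribosomal RNA and assemble the subunits, went in opposite directions in the 2 kinds of cell. In MK cells 27 of 31 were lower in KO, 17 of them by 1 log2 unit or more (9.57% of all genes), with a median of -1.02. In NMK cells without B1-1b and B1-2a, 26 of 31 were not lower in KO, and 14 were higher by 1 unit or more (25.8% of all genes), with a median of 0.91. Mybbp1a, a nucleolar protein, showed both, at -1.65 (SD 0.74) in MK and 3.26 (SD 1.95) in NMK cells, or 2.54 (SD 2.34) in NMK cells with all 13 KO libraries. The difference between the kinds of cell was not tested. Over all genes the median was 0.09 in MK cells and 0.37 in NMK cells without B1-1b and B1-2a. With all 13 KO libraries the NMK median of the housekeeping genes, given further on, was below that of the biogenesis genes. Without B1-1b and B1-2a it was above, so a higher level in KO NMK was not particular to biogenesis genes there. The 6 chaperones of ribosomal proteins were all lower in KO MK (median -0.85) and 2 of 6 were lower in those KO NMK libraries (median 0.64). Of 12 counted genes that control growth and ribosome production, such as Myc and Mycn, 8 were lower in KO MK (median -0.14) and 3 in those KO NMK libraries (median 1.09).

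Leaving out KO MK 2 and B1-4, 29 of 31 biogenesis genes (median -0.995), 6 of 6 chaperones (median -0.55) and 6 of 12 growth control genes (median -0.04) were lower in KO MK. In NMK cells with all 13 KO libraries, 11 of 31 biogenesis genes (median 0.45), 4 of 6 chaperones (median -0.07) and 4 of 12 growth control genes (median 0.58) were lower in KO NMK. The biogenesis medians thus kept their opposite signs in both sets of libraries, and the median of the chaperones in NMK cells did not keep its sign.

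Of the 77 mitochondrial ribosomal protein genes, whose products form the separate ribosome of mitochondria, 72 were lower in KO MK than in WT MK, with a median of -0.49. In NMK cells without B1-1b and B1-2a, 43 of the 77 were lower, with a median of -0.30. Over all genes, 45.3% were lower by any amount in MK cells and 35.5% in those NMK cells. The counts of mitochondrial ribosomal protein genes were 69 (median -0.53) in MK cells without KO MK 2 and B1-4 and 61 (median -0.98) in NMK cells with all 13 KO libraries. Over all genes the median was 0.09 in MK cells and 0.21 without KO MK 2 and B1-4. It was 0.18 with all 13 KO NMK libraries and 0.37 in NMK cells without B1-1b and B1-2a. The 13 housekeeping genes outside the ribosome had a median of 0.18 in MK and 1.20 in those NMK cells, and of 0.12 in MK cells without KO MK 2 and B1-4 and 0.02 in NMK cells with all 13 KO libraries. None of these medians was below 0. Proliferation markers also differed between the NMK groups: their summed TPM had a median of 228 in WT NMK and 1252 in KO NMK. Their part in the NMK differences was not tested.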

How the data were processed

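RNA was measured in libraries of cultured CD41-positive stem cells of WT and KO mice. The authors deposited TPM per gene, to 1 decimal, in a table of 46 libraries matched here to labels and a table of 33 without outliers; shared values were identical. The labels list 90 samples; 44 of them are not analysed here. A further column matched no label and was left unused (1 column). Per the submitters' processing notes, the build was mm10, and the tools named are STAR 2.6.1e, featureCounts 1.6.2, FastQC 0.11.7 and cutadapt 1.9.1. For the annotation, strand setting, TPM formula and outlier rule, nothing is given in the sources used here. Short, similar genes can lose or share reads, which affects single members more than their sum.

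Groups came from the labels. Shares are sums of TPM over the library total. Differences are in mean log2(TPM + 1), with the pooled SD between libraries; a mean of 1 TPM was the minimum, and 1 log2 unit the call size. Each group counts as 1 sample, so no test was run. Named genes were Rplp0, Rpsa, the stalk, Rps19, Rpl5 and Rpl11, copies with their parents, and the 3 highest and 3 lowest members of each comparison at 10 TPM or more, plus up to 2 genes per list. Some results under this rule are not reported here. Members and lists were chosen with earlier results of these data known. Mitochondrially encoded genes were taken as the 13 such symbols in the table, which have no mt prefix. Calculations were checked on simulated data. Promoters came from RefSeq (GRCm38.p6) and transcripts from GENCODE M21. Alternatives covered the full table, libraries left out, pseudocounts of 0.1 and 10, minimums, rescaling, title prefixes, medians and each library in turn.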

Additional observations from a re-analysis of the deposited data

Results flagged for a closer look

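A library stood outside the others of its group in 8 of 75 groups of values tested, by Dixon's criterion, and chance flags about 1 in 20 such groups. Values of WT NMK, WT MK and KO MK were tested. KO NMK, with 13 libraries, was not, so the absence of a flag there has no meaning. In WT NMK, Rpl10 was at 2379 TPM in 1B (next 1672) and Rpl12 at 2475 TPM in library 3 (next 1579). In WT MK, the summed ribosomal protein share was 14.4% in 1B (next 12.7%), and the library with the title prefix B1, B1-1, had a small to large subunit ratio of 0.748 (next 0.797), Rpl32 at 6092 TPM (next 4589), Rpl36al at 1231 TPM (next 2347) and Rps27 at 1050 TPM (next 612). In KO MK, Rps4l was at 0.1 TPM in library 2 and at 0 in the others, 1 step of the deposited decimals. Among the libraries the authors left out, WT MK B1-1b had 20.1% of its TPM on ribosomal protein genes, above the highest kept library (14.4%), with 37 of the 86 members at 1 TPM or more.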

How the results depend on the processing

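The summed share of ribosomal protein genes stayed lower in KO than in WT, in MK and in NMK cells, under all alternatives run. In the full table, however, the KO minus WT difference in MK cells was -3.67 points, smaller than its SD of 5.72. In NMK cells it was -4.34 points there (SD 4.18). With the full table of 46 libraries, MK minus NMK in WT moved to -2.44 points in the share, 76 members past 1 log2 unit and a median of -1.87. Over all genes the median there was -0.03. In that table Rpl29 (-1.70), Rpl7l1 (-1.41), Rplp0 (-2.47), Rps2 (-1.50) and Rpsa (-0.18) turned in that comparison, and for KO minus WT in MK the count was 21, the median 0.34, and Rpl10 (1.08), Rpl36al (0.38) and Rplp0 (1.63) turned. The count for MK minus NMK in KO was 1 without the prefix B1, a lower member, at a share difference of -2.15 points (SD 1.82). With the prefix, which KO NMK B1-1b and B1-2a carry, it was 81, 80 of them higher, at 3.90 points (SD 3.77). The same count, over both directions, was 8 in the full table and 0 without KO NMK B1-1b and B1-2a. It was 13 without KO MK 2 and B1-4, and without all 4 it was 3, all lower. It was 16 with mitochondrially encoded genes out of the total, 50 and 5 at pseudocounts of 0.1 and 10, and 0 over medians. For KO minus WT in MK it was 25 under median-ratio rescaling, 16 without the prefix, and 43 (median -1.01) without KO MK 2 and B1-4; for KO minus WT in NMK it was 8 without B1-1b and B1-2a, 3 without the prefix and 11 over medians. For MK minus NMK in WT it was 1 under rescaling. Leaving out 1 library at a time, the counts ran from 2 to 4 (MK minus NMK in WT), 0 (without KO NMK B1-2a) to 46 (without KO MK 1B) for MK minus NMK in KO, 1 (without KO MK 1B) to 15 (without KO MK B1-4) for KO minus WT in MK, and 25 (without KO NMK B1-2a) to 73 for KO minus WT in NMK. The cause was not tested. Where no share of all genes is given above for a setting, whether a moved count is particular to the members cannot be told. No paired analysis was possible because no test was run and no label says that equal replicate numbers mark a shared animal. The prefix B1 gives no value for MK minus NMK in WT and KO minus WT in NMK. The alternatives without KO MK 2 and B1-4 were chosen after seeing the data. Depth is unknown, so a 0 sets no limit.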
